A study of Mus musculus with 35 samples.

Results

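The genes described here are 39 genes that act in G2 phase and mitosis, taken by name from the 24421 genes listed in the count files. They were listed with earlier results of these data known, and no measured value enters the rule. All 39 passed the filter on low counts in both sets of libraries analysed. Gene expression was measured by poly(A) RNA-seq in immortalized embryonic fibroblasts of the mouse (iMEFs) whose Nelfb alleles were floxed and null (Nelfb flox/-). Nelfb encodes a subunit of the negative elongation factor NELF. Populations carried an empty vector (EV), wild-type NELFB (WT), MT194 (residues VKR changed to AAA, which loses binding to NELFA and NELFC), MT486 (residues NKN changed to AAA, which loses binding to NELFE) or DMT (both changes) in pLenti. They were collected 7 days after infection with Ad-Cre, an adenovirus with Cre recombinase and GFP that deletes the floxed allele, or with Ad-GFP, the control virus, with 2 replicates for each of the 10 groups. The 15 stable lines were each grown from a single cell after Ad-Cre, 3 per construct, with WT, MT194 or MT486 in pLenti and WT(N48) or Δ-C60 (the last 60 residues of NELFB removed) in pBabe. The share of cells infected in a population was not given in the sources used here, and a line is 1 clone, so the spread between lines includes that between clones.

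Entry into mitosis is driven by the kinase CDK1 bound to cyclin A or cyclin B, which CDC25 phosphatases switch on and which Polo and Aurora kinases assist. Kinetochores join chromosomes to the microtubules of the spindle, the spindle checkpoint holds the anaphase-promoting complex (APC/C) in check until all are joined, and motors and cytokinesis proteins then part the daughter cells. Many of these genes are transcribed together late in the cell cycle by FOXM1 and B-MYB with the MuvB core, the activators that alternate with the repressor complex DREAM at a promoter element called CHR and beside CCAAT boxes, which bind NF-Y.

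Promoters of 5 members are shown as examples. Of these, Cdk1, Ube2c, Top2a and Kif11 were picked because their promoters hold exact matches to both sequences marked below, as most member promoters do not. Nuf2 was picked because it holds neither. Other forms of the elements were not searched. RefSeq (GRCm38.p6) gave promoters for 32 of the 39 members, 34 in all, and each sequence is the 250 bases before the annotated start, read 5′ to 3′ on the strand of the gene. Capitals mark TTTGAA (or TTCAAA, the same letters on the other strand), the core of the CHR, and CCAAT (or ATTGG), and the run CCAATTGG in Ube2c holds 2 overlapping matches.
Cdk1 (chr10:69352913-69353162, minus strand): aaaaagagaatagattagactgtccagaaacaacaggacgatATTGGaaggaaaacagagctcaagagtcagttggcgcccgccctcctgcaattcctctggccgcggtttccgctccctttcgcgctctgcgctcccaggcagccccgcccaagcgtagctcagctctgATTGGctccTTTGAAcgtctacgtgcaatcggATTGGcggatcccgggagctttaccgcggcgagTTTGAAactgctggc
Ube2c (chr2:164769679-164769928, plus strand): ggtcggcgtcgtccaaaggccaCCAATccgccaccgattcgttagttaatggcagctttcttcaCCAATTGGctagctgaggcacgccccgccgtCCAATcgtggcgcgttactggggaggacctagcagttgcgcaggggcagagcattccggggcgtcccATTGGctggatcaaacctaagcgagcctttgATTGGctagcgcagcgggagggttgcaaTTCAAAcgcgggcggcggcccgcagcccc
Top2a (chr11:99024190-99024439, minus strand): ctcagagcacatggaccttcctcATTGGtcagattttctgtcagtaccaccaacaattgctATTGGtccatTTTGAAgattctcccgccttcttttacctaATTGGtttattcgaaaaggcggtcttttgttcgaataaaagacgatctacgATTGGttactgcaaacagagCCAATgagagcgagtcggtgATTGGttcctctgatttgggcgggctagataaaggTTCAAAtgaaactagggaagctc
Kif11 (chr19:37376132-37376381, plus strand): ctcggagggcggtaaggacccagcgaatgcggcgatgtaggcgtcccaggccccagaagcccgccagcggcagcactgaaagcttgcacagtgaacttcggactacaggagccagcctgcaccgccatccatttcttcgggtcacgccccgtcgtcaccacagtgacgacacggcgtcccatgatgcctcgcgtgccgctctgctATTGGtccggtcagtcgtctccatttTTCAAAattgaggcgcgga
Nuf2 (chr1:169531465-169531714, minus strand): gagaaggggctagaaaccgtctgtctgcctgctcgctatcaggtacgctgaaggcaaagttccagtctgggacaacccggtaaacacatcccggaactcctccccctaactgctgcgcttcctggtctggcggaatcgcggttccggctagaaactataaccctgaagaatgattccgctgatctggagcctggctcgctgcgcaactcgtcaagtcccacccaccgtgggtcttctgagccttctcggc
TTTGAA was present in 11 of the 34 member promoters (32.4%) and in 13.8% of the 20788 promoters of all listed genes, CCAAT in 26 (76.5%) against 35%, and both in 10 (29.4%) against 5.03%. Nuf2 is a subunit of the NDC80 complex, which holds microtubules. The shares are descriptions of letters and were not tested, and a link between these elements and the levels was not tested either.

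Between 17969149 and 29080007 reads per population library and between 18413284 and 27816723 per clone were counted on genes, and each member had at least 93 reads in every population and 151 in every clone. Levels are normalised read counts (CPM, reads scaled to library size with TMM factors), separately for populations and clones. Nelfb itself had 46.1 and 39.5 CPM in EV-GFP (replicates 1 and 2) and 7.97 and 5.46 in EV-Cre. With Ad-Cre it had 75.9 and 60.5 CPM in WT, 104 and 119 in MT194, 116 and 128 in MT486 and 169 and 208 in DMT. Among WT clones, 200 (clone 1) and 306 (clone 3) reads fell on Nelfb against 2637 in clone 2. These are few for clones labelled as carrying WT, and the reason was not tested. MT486 clones 1 and 2 were far more alike than other replicate pairs, with a chi-square of 5.06 per gene against 32.4 to 349 for the other 24 pairs of libraries. Whether they are separate clones cannot be told from these files, so the 3 MT486 clones may stand for 2, and their SD and p-values for less spread than that between clones. With the pair summed as 1 clone, an alternative chosen after the data were seen, 0 members were called in MT486 against WT or WT(N48), as without it. Of 10 fibroblast markers, 9 exceeded 1 CPM in some library, which summed to 23681 to 42122 CPM (populations) or 7887 to 26327 CPM (clones), and Fn1 was the most abundant. Thy1 reached at most 0.150 CPM, and Dcn, at 1323 or more CPM in every population, was as low as 0.418 CPM in a clone. Epithelial, endothelial and haematopoietic markers summed to at most 9.79 CPM in any library. Of the neural list, which summed to 6.25 to 16.3 CPM in the populations and 25.5 to 141 CPM in the clones, Map2 and Tubb3 made up nearly all, while Sox10 and Rbfox3 stayed under 0.1 CPM. In MT194 clones its sums were 38.7, 51.3 and 49.6 CPM against 68.3, 73.7 and 73.5 in WT clones, and those of the fibroblast list were 12956, 26327 and 14198 CPM against 12225, 10164 and 7887. Skeletal muscle markers reached 14.3 CPM in MT194 clone 1, of which Myod1 was 13.7 CPM. The part of these genes in the results was not tested.

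In EV-GFP, which keeps the floxed allele, the members ranged per kilobase of exon from 1.71 CPM for Cdc25c to 27.0 CPM for Top2a, the topoisomerase that untangles sister chromatids, with Cdk1 at 21.3 CPM per kilobase. On this scale Tpx2, which targets Aurora A to the spindle, was second at 24.9 CPM per kilobase.

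Loss of Nelfb in EV populations was followed by lower levels of nearly the whole set. The median member stood at 37.1 and 47.4 CPM in EV-GFP (replicates 1 and 2) and at 28.2 and 17.04 CPM in EV-Cre. Of the 39 members, 38 had a negative log2 fold change, with a median of −0.78 against 0.00 over the 13805 genes tested. In 33 members both EV-Cre libraries lay below both EV-GFP libraries, where 23.9% of all genes did, and the 6 that overlapped were Pttg1, Incenp, Kif4, Prc1, Anln and Racgap1. A gene was called where its log2 fold change exceeded 0.5 in size and edgeR's quasi-likelihood p, adjusted by Benjamini-Hochberg over all genes, stayed under 0.05. By this rule 4 members fell and 0 rose (5.94% of all genes fell and 5.84% rose), and 20 members were lower at an unadjusted p under 0.05 (1827 of all 13805 genes). DESeq2 called 9 members lower and 0 higher (7.38% and 7.08% of all genes). With the replicate number as a block, 11 members fell, while 13% of all genes fell and 12.4% rose. Without EV-Cre replicate 2 or EV-GFP replicate 2 the count was 0, and without EV-GFP replicate 1 it was 2, while a fit of these 2 groups alone called 0. The median ran from −1.28 without EV-Cre replicate 1 to −0.46 without EV-Cre replicate 2. The share of reads on no gene was 13.9% and 17.7% in EV-GFP and 15.5% and 18.8% in EV-Cre. It was 13.7% and 16.7% in WT-GFP and 11.7% and 15.2% in WT-Cre. Haematopoietic markers summed to 4.46 and 6.02 CPM in EV-GFP and 7.38 and 8.69 in EV-Cre. The part of these measures was not tested. Fewer cells in G2 or mitosis and less RNA per such cell cannot be told apart in bulk RNA.

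**Figure D1:**
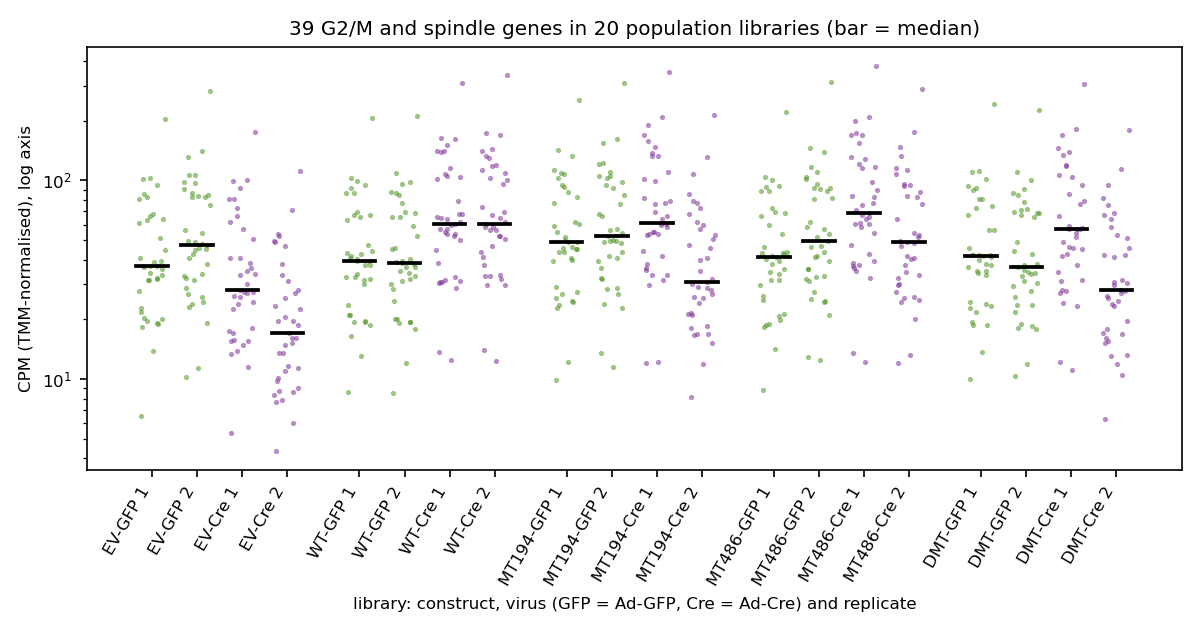
CPM (log axis) of the 39 genes in each of the 20 population libraries, green for Ad-GFP and purple for Ad-Cre, with a bar at the median. The medians are lowest in the EV-Cre libraries (28.2 and 17.04 CPM) and in replicate 2 of DMT-Cre (28.1) and MT194-Cre (30.8), and 60.2 and 60.1 in WT-Cre.

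Among the genes of CDK1 and its regulators, Ccnb1 (cyclin B1, chr13:100778650-100786570) had 18.9 and 24.4 CPM in EV-GFP and 11.5 and 6.03 in EV-Cre. Its log2 fold change was −1.30 (standard error 0.40, adjusted p 0.048). Its count is uncertain to the extent that reads are shared with the pseudogene Ccnb1-ps, and Ccnb2 and Kif4 also have such pseudogenes. Cdc25b (chr2:131186949-131198497), a phosphatase that activates CDK1, had 37.3 and 49.3 CPM in EV-GFP and 22.7 and 19.6 in EV-Cre, a log2 fold change of −1.04 (0.28, adjusted p 0.0262). Both genes fell in both replicates with no overlap between the groups. Cdk1 had 103 and 107 CPM against 92.0 and 46.6, a log2 fold change of −0.60 (0.38) that did not pass the test (adjusted p 0.35). Foxm1, the transcription factor of the set, had 85.3 and 107 CPM against 80.7 and 52.5 and a log2 fold change of −0.52 (0.33, adjusted p 0.341), the smallest of these 7 genes. By edgeR Ccnb2 passed only with the block (adjusted p 0.0674 without it and 0.0143 with it), while DESeq2 without the block called 3 of these 7 genes lower.

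Of the spindle checkpoint genes, Bub1b (BUBR1, chr2:118598211-118641591), which holds CDC20 of the APC/C, had 66.2 and 97.4 CPM in EV-GFP and 40.9 and 25.7 in EV-Cre. Its log2 fold change was −1.30 (0.35, adjusted p 0.0288), and the other checkpoint kinase named, Ttk, had −0.73 (0.36, adjusted p 0.214). Kif2c (chr4:117159639-117182639), a kinesin that takes apart microtubules at the kinetochore, had 21.7 and 28.9 CPM in EV-GFP and 13.4 and 7.72 in EV-Cre, with a log2 fold change of −1.26 (0.36, adjusted p 0.0344). Both were called in the test without the block and in that with it. Cdc20, the activator of the APC/C, had 31.5 and 42.5 CPM against 24.0 and 13.5 and a log2 fold change of −0.98 (adjusted p 0.0911 without the block and 0.0412 with it).

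Among the kinases and the chromosomal passenger complex, Plk1 had a log2 fold change of −0.87 (0.38, adjusted p 0.165), Aurkb, the kinase of the complex, −0.82 (0.32, adjusted p 0.12), and Incenp, its scaffold, −0.45 (0.29, adjusted p 0.365). Aurkb passed with the block (adjusted p 0.0495). Among centromere and kinetochore genes Cenpf had −1.09 (0.38, adjusted p 0.0789) and Spc25 −0.54 (0.43, adjusted p 0.478), and of the motors and spindle genes Kif4 had −0.59 (0.31, adjusted p 0.257). Cytokinesis genes had the median nearest 0 of the roles, −0.61 over 6 genes, and 0 called with or without the block. Anln (anillin, the scaffold of the contractile ring) had −0.45 (0.29, adjusted p 0.359), and Kif20a, a motor of the central spindle, −0.77 (0.38, adjusted p 0.216). The other members called with the block were Mad2l1, Cenpa, Nusap1 and Hmmr.

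Pttg1 (securin, the inhibitor of separase, chr11:43420250-43426251) did not move with the others. It had 13.8 and 11.4 CPM in EV-GFP and 14.9 and 11.7 in EV-Cre, and stayed between 11.1 and 14.9 CPM in all 20 populations. Across the 20 libraries its log2 level had a Pearson correlation of −0.15 with the mean of the other members, while the median for a member was 0.96 and 35 of 39 were over 0.9. These libraries share groups and replicates, so the values describe the set and carry no p. Across the 15 clones the median was 0.61, and none was over 0.9.

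**Figure D2:**
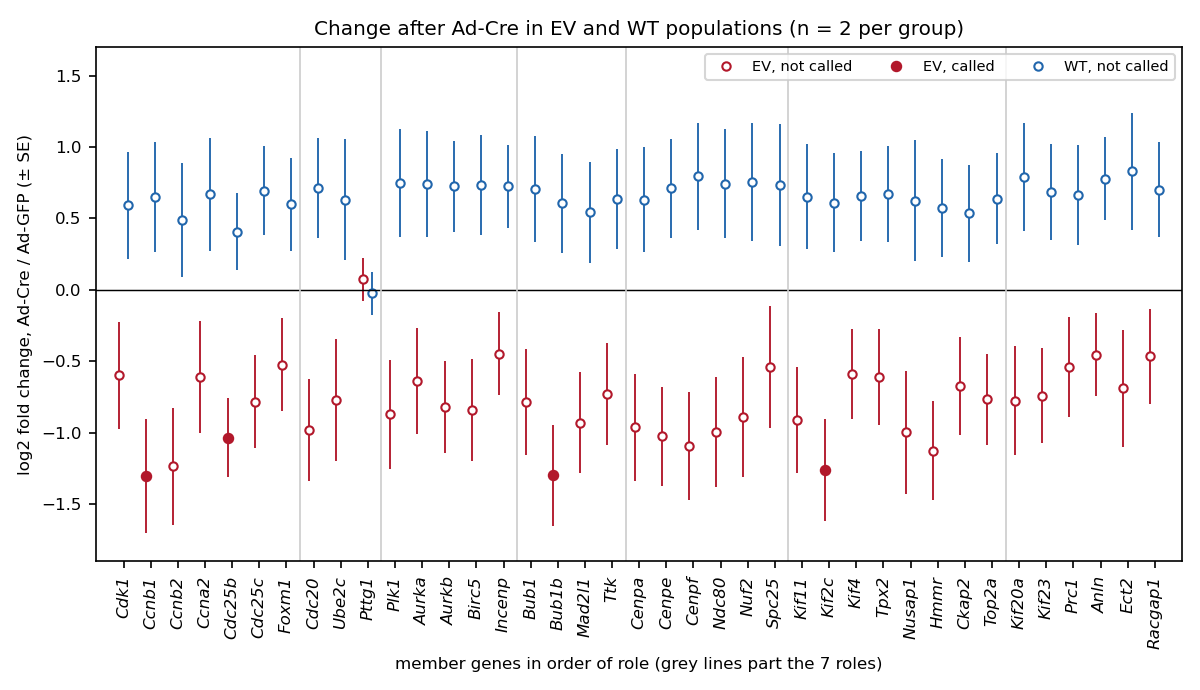
Log2 fold change of Ad-Cre against Ad-GFP (± standard error, n = 2 per group) for each member in EV (red) and WT (blue), in order of role. In EV 38 members lie below 0 and the filled points are the 4 called, and in WT 38 lie above 0 with none called.

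In WT populations the same virus was followed by the opposite direction. The median member had 39.6 and 38.6 CPM in WT-GFP (replicates 1 and 2) and 60.2 and 60.1 in WT-Cre, and 38 members lay higher in both WT-Cre libraries than in both WT-GFP libraries, where 18.7% of all genes did. The median log2 fold change was 0.67 against −0.01 over all genes, and the highest was 0.83 for Ect2, which activates RhoA for cytokinesis. By edgeR 0 members were called (0.0217% of all genes rose and 0% fell), 4 were higher at an unadjusted p under 0.05 (419 of all 13805 genes), and the smallest adjusted p was 0.673. DESeq2 also called 0 (0.174% of all genes rose and 0.254% fell), as did the fit with the block (1.34% rose and 1.75% fell). Ccnb1 had 19.5 and 19.3 CPM in WT-GFP and 28.9 and 31.9 in WT-Cre, a log2 fold change of 0.65 (0.39, adjusted p 0.895). Anln had 94.8 and 98.6 CPM against 162 and 170, a log2 fold change of 0.78 (0.29, adjusted p 0.673).

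The difference between the Ad-Cre effects in WT and in EV was tested as an interaction. Its median over members was 1.48 on the log2 scale, 38 of 39 were positive and 37 had an unadjusted p under 0.05. At that p 840 of all 13805 genes were higher and 782 lower. None passed an adjusted p of 0.05 by edgeR (0.398% of all genes were higher and 0.283% lower), DESeq2 called 9 (1.68% and 1.56% of all genes), and with the replicate block 14 members passed (9.37% and 7.93% of all genes). For Ccnb1 the difference was 1.95 (0.55), with an adjusted p of 0.154 without the block and 0.0318 with it. For Bub1b it was 1.90 (0.49), with 0.12 and 0.0287.

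In EV as in the mutants the 2 replicates gave different values, while those of WT were alike. The median log2 ratio of Ad-Cre to Ad-GFP CPM within a replicate was −0.27 in replicate 1 and −1.42 in replicate 2 of EV. The same ratio was 0.67 and 0.68 in WT, 0.41 and −0.63 in MT194, 0.86 and −0.02 in MT486, and 0.43 and −0.41 in DMT. Thus in EV both ratios were negative, in WT both were positive, and in MT194, MT486 and DMT they had opposite signs, with 21 members lower and 18 higher in replicate 2 of MT486. In MT194 replicate 1, 38 members were higher with Ad-Cre, and in replicate 2, 38 were lower. For Ccnb1 the levels were 24.4 and 26.9 CPM in MT194-GFP and 31.7 and 16.8 in MT194-Cre, 19.96 and 24.8 in MT486-GFP and 32.4 and 20.1 in MT486-Cre, and 18.8 and 18.6 in DMT-GFP and 23.4 and 10.6 in DMT-Cre.

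Over both replicates, the median log2 fold change of Ad-Cre against Ad-GFP was −0.03 in MT194, 0.43 in MT486 and 0.10 in DMT. Without replicate 1 or replicate 2 of the Ad-Cre group it was −0.56 or 0.34 in MT194, 0.15 or 0.67 in MT486, and −0.47 or 0.46 in DMT, and without MT486-GFP replicate 1 it was 0.23 in MT486. In MT194 it was −0.12 or 0.02 when the first or the other MT194-GFP library was left out, and in DMT 0.01 without DMT-GFP replicate 2. By edgeR and by DESeq2 0 members were called in each, and 0, 1 and 0 had an unadjusted p under 0.05. At that p, 1070 of all genes were higher and 1197 lower in MT194, 963 and 1039 in MT486, and 1675 and 1758 in DMT. DESeq2 called 3.23% of all genes higher and 3.3% lower in MT194, 2.45% and 2.51% in MT486, and 5.95% and 6.77% in DMT. By edgeR 1.88% of all genes rose and 2.33% fell in MT194, 1.14% and 1.28% in MT486, and 4.58% and 5.34% in DMT. With the block 0 members were called in each as well, while 7.08% and 7.43% of all genes were called higher and lower in MT194, 5.55% and 6.57% in MT486, and 11.2% and 12% in DMT. Both Ad-Cre libraries exceeded both Ad-GFP libraries in 17 members in MT486 (18% of all genes) and in 1 in DMT, Anln (24%). They lay below in 1 member in MT194, Cdc25b (18% of all genes), and in 2 in DMT, Cdc25b and Pttg1 (24.2%). The lowest value was that of Cdc25b in MT194 (−0.55) and in DMT (−0.43), and the highest that of Anln in MT194 (0.21), MT486 (0.72) and DMT (0.55). Against EV as interactions, the median differences were 0.76 in MT194, 1.22 in MT486 and 0.87 in DMT. The difference in MT194 was 1.25 or 0.41 without EV-Cre replicate 1 or 2 and 0.20 or 1.14 without MT194-Cre replicate 1 or 2, and that in DMT was 1.36 or 0.52 and 0.38 or 1.28 in the same order. In MT486 it ran from 0.89 to 1.74, both without an EV-Cre library. By edgeR, with and without the block, and by DESeq2 without it, 0 members were called in each. In these, 2, 32 and 2 members had an unadjusted p under 0.05, and edgeR called 1 gene of all in each (0.00724% higher and 0% lower). At that unadjusted p, 176 of all genes were higher and 268 lower in MT194, 371 and 344 in MT486, and 66 and 93 in DMT. DESeq2 called 0.0652% of all genes higher and 0.0869% lower in MT194, 0.13% and 0.174% in MT486, and 0.00724% and 0% in DMT. With the block 0.464% and 0.529% of all genes were higher and lower in MT194, 1.62% and 1.34% in MT486, and 0.00724% and 0% in DMT.

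**Figure D3:**
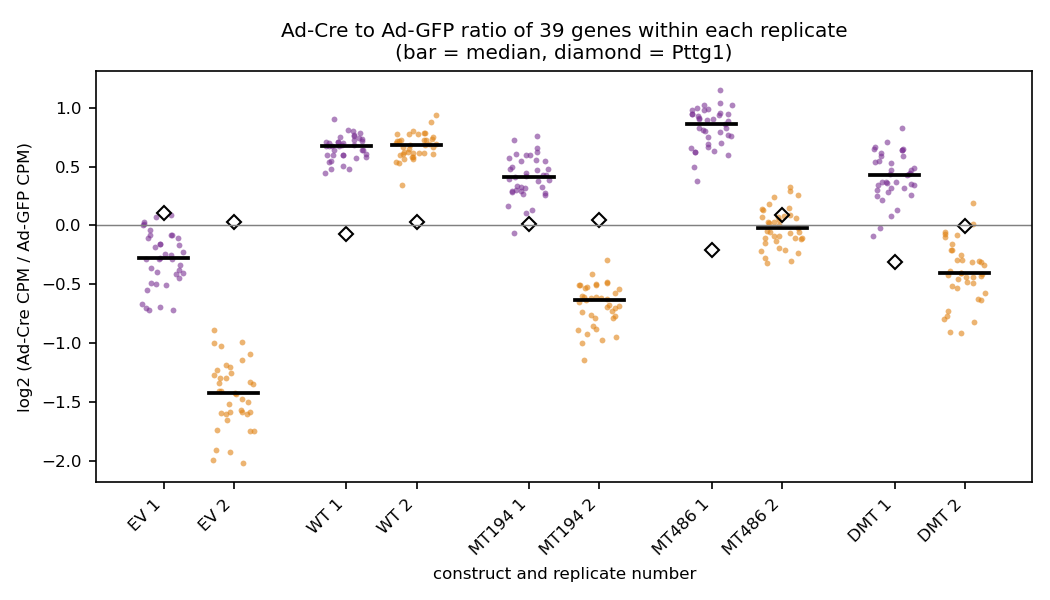
Log2 ratio of Ad-Cre to Ad-GFP CPM for the 39 genes within replicate 1 (purple) and replicate 2 (orange) of each construct, with a bar at the median and a diamond for Pttg1. The median of replicate 2 lies below that of replicate 1 in EV, MT194, MT486 and DMT, and the medians of WT are 0.67 and 0.68.

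The replicates were also compared within each virus. Over the 10 Ad-Cre libraries, with construct as a block, all 39 members were lower in replicate 2, with a median log2 fold change of −0.62, and 28 were called lower (4.75% of all genes were lower and 17.4% higher). This difference is pooled over constructs, and WT-Cre did not show it in the median member (60.2 and 60.1 CPM in replicates 1 and 2). Ube2c, the ubiquitin-conjugating enzyme of the APC/C, had the lowest value, −0.85 (0.14, adjusted p 0.000602 by edgeR). Over the 10 Ad-GFP libraries 30 members were higher in replicate 2, the median was 0.18 and 1 was called higher (17.2% of all genes were higher and 5.91% lower). This was Cenpf, a large kinetochore protein, at 0.54 (0.09, adjusted p 0.000268). Other measures moved with the replicate as well. The share of reads on no gene was higher in replicate 2 in 9 of 10 groups (11.7% to 15.8% in replicate 1 and 15.2% to 19.7% in replicate 2 with Ad-Cre), and the fibroblast markers summed higher in 10 of 10 (23980 to 27035 against 33095 to 42122 CPM with Ad-Cre). Their part in the difference was not tested. Over all 20 libraries 0 members were called (4.03% of all genes lower and 19% higher) and the median was −0.23. At an unadjusted p under 0.05, 9 were lower (5196 of all 13805 genes lower and 4946 higher). DESeq2 called 0 (4.11% of all genes lower and 18.4% higher). The paper describes the replicates as separate experiments, and neither the harvest nor the infected share of cells was given by the sources used here.

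With Ad-Cre in all groups, the constructs can be set against EV-Cre, whose 2 libraries are shared by these comparisons. In WT-Cre 22 members were higher and 0 lower (3.89% of all genes were higher and 3.48% lower), the median log2 fold change was 1.39 and 38 members did not overlap (26.7% of all genes). With the replicate block 38 were called (11.1% and 11.9% of all genes), all members but Pttg1. Kif2c had 13.4 and 7.72 CPM in EV-Cre and 38.3 and 41.2 in WT-Cre, 3.77-fold higher (log2 1.91, standard error 0.36, adjusted p 0.0079). Ccnb1, with 28.9 and 31.9 CPM in WT-Cre, was 3.47-fold higher (1.79, 0.40, adjusted p 0.0173), and Bub1b, with 106 and 118, was 3.35-fold higher (1.75, 0.36, adjusted p 0.0113). Every role had called members, from 1 of 3 APC/C and securin genes and 2 of 6 cytokinesis genes to 4 of 5 in the kinase and passenger group, and with the block all members of every role but Pttg1. Cdk1 (1.09, 0.38, adjusted p 0.0999) and Foxm1 (1.02, 0.33, adjusted p 0.0741) did not pass, but did with the block (adjusted p 0.0163 and 0.0247). With 1 library left out, which leaves 1 sample in a group, the median ran from 0.97 to 1.77. The calls depended on which library was left out, and their range is given under the dependence on processing.

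In MT486-Cre the median log2 fold change against EV-Cre was 1.30, and both libraries exceeded both EV-Cre libraries in 38 members (16.7% of all genes). None was called by edgeR (0.181% of all genes were higher and 0.181% lower), the smallest adjusted p was 0.0601, that of Cdc25b, 38 had an unadjusted p under 0.05, DESeq2 called 30 (1.83% and 1.12% of all genes), and with the replicate block 37 were called (4.8% higher and 4.16% lower of all genes). In MT194-Cre the median was 1.01, 30 members did not overlap (13.3% of all genes), and 0 were called (0.0797% and 0.145% of all genes) with 33 at an unadjusted p under 0.05 and 7 called by DESeq2 (0.782% and 0.739%). Its median was 1.48 or 0.69 without EV-Cre replicate 1 or 2 and 0.49 or 1.38 without MT194-Cre replicate 1 or 2. With the block 5 were called (3.12% and 3.09% of all genes), namely Ccnb1, Ccnb2, Plk1, Aurka and Kif2c. In DMT-Cre the median was 0.82, 18 members did not overlap (10.1% of all genes), and 26 had an unadjusted p under 0.05. By edgeR 0 were called (0.00724% and 0% of all genes without the block, 0.225% and 0.123% with it). DESeq2 also called 0 (0.029% of all genes higher and 0.0217% lower). Its median was 1.30 or 0.47 without EV-Cre replicate 1 or 2 and 0.32 or 1.21 without DMT-Cre replicate 1 or 2. At an unadjusted p under 0.05, 903 of all genes were higher and 773 lower in MT486-Cre, 662 and 664 in MT194-Cre, and 262 and 185 in DMT-Cre. Kif2c had 35.5 and 18.1 CPM in MT194-Cre, 37.1 and 29.6 in MT486-Cre and 27.3 and 15.2 in DMT-Cre, against 13.4 and 7.72 in EV-Cre.

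With Ad-GFP, where all populations keep the floxed allele, the constructs had medians of −0.13 (WT), 0.27 (MT194), 0.08 (MT486) and −0.07 (DMT) against EV-GFP. By edgeR and DESeq2 0 members were called in each and 0 had an unadjusted p under 0.05, while edgeR called at most 0.00724% and DESeq2 at most 0.058% of all genes in either direction. These medians moved with EV-GFP, being −0.31, 0.09, −0.07 and −0.25 in the same order without replicate 1 of EV-GFP and 0.06, 0.48, 0.26 and 0.11 without its replicate 2. Without MT486-GFP replicate 1 or 2 the MT486 median was 0.25 or −0.09, without DMT-GFP replicate 1 or 2 that of DMT was −0.13 or −0.01, and without MT194-GFP replicate 2 that of MT194 was 0.18. Both MT194-GFP libraries exceeded both EV-GFP libraries in 22 members (9.82% of all genes), and both WT-GFP libraries lay below them in 6 (7.53%).

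Other gene lists of the cell cycle give the setting for these values. In EV with Ad-Cre edgeR called 5.94% of all genes lower and 5.84% higher, and the shares of the next 3 lists called lower lie near that. Of 37 other spindle, motor and cytokinesis genes, 2 fell and 0 rose, 37 were lower and the median was −0.77. DESeq2 called 5 lower and the block 6 (7.38% and 13% of all genes). Aspm, which focuses spindle poles, had 42.1 and 70.7 CPM in EV-GFP and 20.2 and 15.9 in EV-Cre (−1.64, 0.35, adjusted p 0.00906), and Cdca3 had −1.27 (0.38, adjusted p 0.043). Mki67, the proliferation marker, had 227 and 502 CPM against 195 and 182 and did not pass (−0.95, 0.45, adjusted p 0.203). Of 31 other kinetochore and centromere genes, 2 fell, Spc24 (−1.04, 0.30, adjusted p 0.0384) and Cenpl (−0.90, 0.27, adjusted p 0.0471), with a median of −0.49. With the block 6 fell and 1 rose, Zwint, named after its values were seen, at 0.55 (0.22) with an adjusted p of 0.133 without the block and 4.16e-05 with it. Of 19 condensin and cohesion genes 1 fell, the cohesin subunit Smc1a (−0.66, 0.16, adjusted p 0.0172), with a median of −0.49, and Stag1 had −0.49 (0.15, adjusted p 0.0531).

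Lists that act at other steps gave medians nearer 0. Of 21 APC/C subunits and regulators edgeR and DESeq2 called 0, 7 were lower at an unadjusted p below 0.05, and the median was −0.19, with Anapc5 at −0.39 (0.13, adjusted p 0.0584) and Anapc2 at −0.31 (0.11, adjusted p 0.0737). Of 11 tested regulators of mitotic entry 1 rose, Lats2, a kinase of the Hippo pathway, from 104 and 76.8 to 177 and 171 CPM (0.95, 0.20, adjusted p 0.00843), and Cks1b had −0.68 (0.36, adjusted p 0.262 without the block and 0.0190 with it), with a list median of −0.09. Of 23 DREAM, B-MYB and E2F regulators 1 rose and 1 fell, with a median of −0.11, and DESeq2 and the block each had 3 that fell. Cdkn1a, the CDK inhibitor p21, rose from 15.3 and 12.1 to 78.8 and 50.7 CPM (2.24, 0.31, adjusted p 0.000578) and E2f2 fell (−0.89, 0.23, adjusted p 0.0253), while Mybl2 had 0.52 (0.34, adjusted p 0.375). Of 42 S phase and DNA replication genes edgeR and DESeq2 called 0, 1 was lower at an unadjusted p below 0.05, and the median was −0.06, with Rfc3 at −0.58 (0.25, adjusted p 0.153 without the block and 0.00746 with it, where 2 genes fell) and Pold1 at −0.46 (0.22, adjusted p 0.2). In WT with Ad-Cre the S phase genes were all 42 higher, with a median of 0.62, 22 at an unadjusted p under 0.05 and 0 called by edgeR or DESeq2. With the block 4 of these were called higher, where 1.34% of all genes were.

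**Figure D4:**
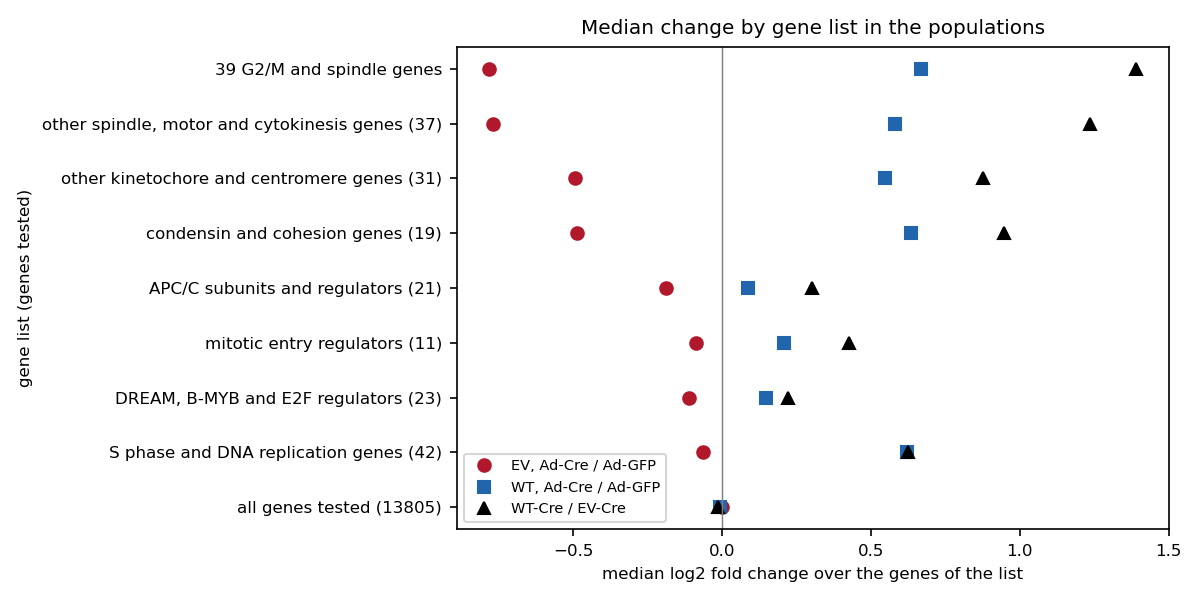
Median log2 fold change of each gene list (number of genes tested in brackets) for Ad-Cre against Ad-GFP in EV (red) and in WT (blue) and for WT-Cre against EV-Cre (black). The G2/M and spindle genes have −0.78, 0.67 and 1.39 and the S phase genes −0.06, 0.62 and 0.62.

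In the stable clones the members' median level was 73.0 to 139 CPM per clone against 17.4 to 70.4 in the populations when all 35 libraries were scaled together. Clones and populations differ in how they were grown and selected, and these differences cannot be told apart from that in level, so no test was made. Scaled among clones, the median was 120, 132 and 142 CPM in WT (clones 1 to 3), 135, 111 and 116 in WT(N48), 123, 123 and 132 in MT486, and 113, 103 and 148 in Δ-C60. In MT194 it was 91.5, 75.9 and 104 CPM, and MT194 overlapped only with Δ-C60.

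MT194 clones had lower levels of many members than WT or WT(N48) clones. Against WT clones 37 of 39 were lower, with a median log2 fold change of −0.44 (0.03 over all genes), and all 3 MT194 clones lay below all 3 WT clones in 25 members (16.9% of all genes). By the test 5 members fell and 0 rose (1.63% of all genes fell and 1.28% rose), Ccnb1, Ccna2, Cenpe, Kif2c and Ect2. Against WT(N48) clones 35 were lower, with a median of −0.37, 23 did not overlap (16.4% of all genes) and 5 fell and 0 rose (3.26% and 2.56% of all genes), Ccnb1, Cenpe, Kif20a, Anln and Ect2. The MT194 libraries are shared by both comparisons, so the lists are not independent. Ect2 (chr3:27097222-27153878) had 77.6, 65.0 and 91.1 CPM in MT194, 120, 155 and 144 in WT and 168, 151 and 146 in WT(N48), with log2 fold changes of −0.84 (0.15, adjusted p 0.0234) and −0.99 (0.15, adjusted p 0.00637). Ccnb1 had 25.9, 28.1 and 31.6 CPM in MT194, 59.6, 47.9 and 58.2 in WT and 73.6, 59.96 and 45.6 in WT(N48), with −0.95 (0.20, adjusted p 0.0312) and −1.07 (0.20, adjusted p 0.014). Cenpe, a kinesin that moves chromosomes to the spindle equator, had 89.2, 108 and 89.7 CPM in MT194 against 129, 161 and 148 in WT, a log2 fold change of −0.61 (0.14, adjusted p 0.0455). Ccna2, cyclin A2, had −0.71 (0.17, adjusted p 0.0476) and Kif2c −0.71 (0.17, adjusted p 0.0458) against WT, and Kif20a −0.62 (0.15, adjusted p 0.0366) and Anln −0.88 (0.24, adjusted p 0.046) against WT(N48). Outside the set, Mki67 had 401, 363 and 319 CPM in MT194, 495, 645 and 741 in WT and 630, 484 and 485 in WT(N48). The S phase gene Pold1 had 69.2, 57.9 and 75.4 CPM in MT194, 101, 92.8 and 100 in WT and 89.2, 72.0 and 66.0 in WT(N48). Rfc3 had 58.6, 44.1 and 57.4 CPM in MT194 and overlapped with WT (65.3, 92.1 and 57.5).

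DESeq2 called 9 members lower in MT194 clones against WT and 9 against WT(N48) (4.66% and 6.67% of all genes). Several other settings gave fewer than 5, as listed under the dependence on processing. The edgeR counts rest on few clones. Against WT, 0 members were called without WT clone 2, WT clone 3, MT194 clone 1, MT194 clone 2, or WT clones 1 and 3 together, 1 was called without WT clone 1 and 5 without MT194 clone 3. Against WT(N48), 1 was called without MT194 clone 1, WT(N48) clone 1 or WT(N48) clone 2, 2 without MT194 clone 3, 4 without MT194 clone 2 and 6 without WT(N48) clone 3. For the fits with clones left out, shares of all genes are not given, so the counts describe the members alone. Cdk1 did not follow this order, at 168, 249 and 189 CPM in MT194, 219, 208 and 220 in WT and 380, 383 and 294 in MT486, and it was called in none of the clone comparisons.

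**Figure D5:**
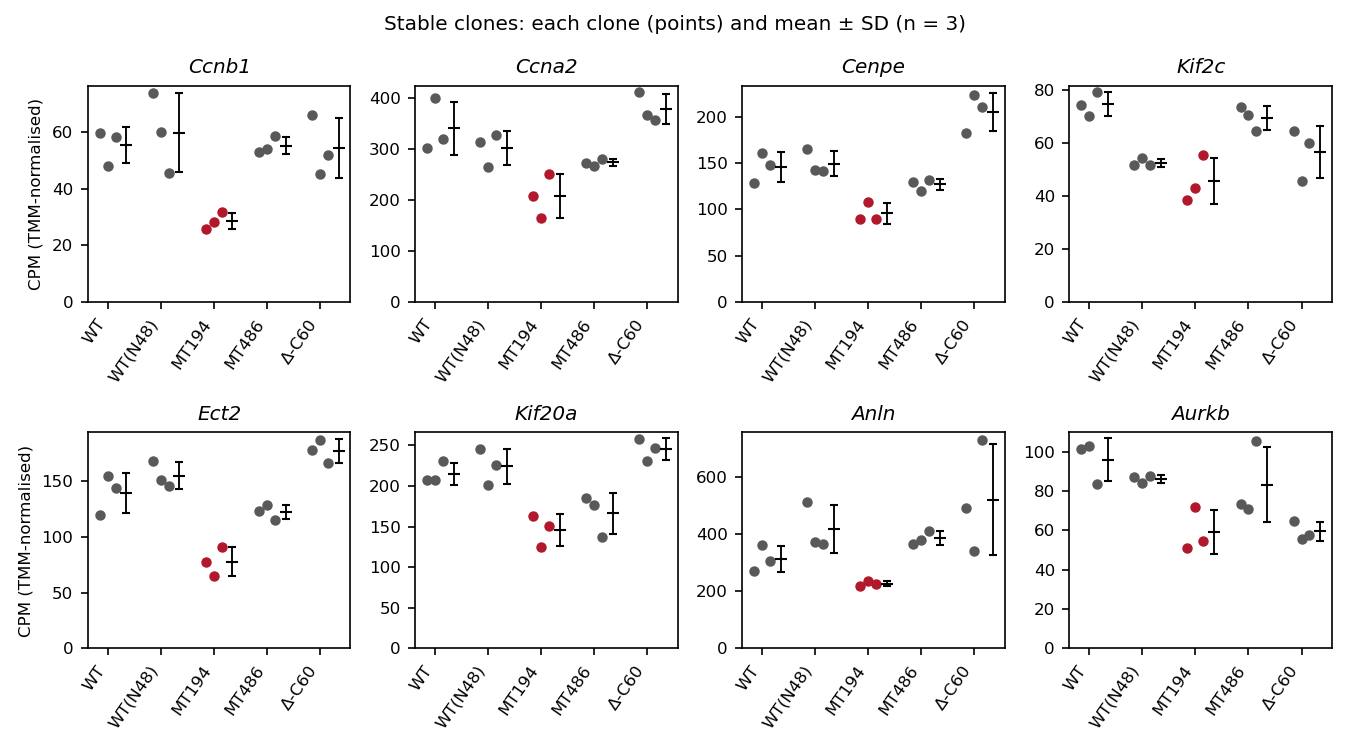
CPM of 8 members in each stable clone (points, MT194 in red) with mean ± SD (n = 3 clones per group as labelled, MT486 clones 1 and 2 being nearly alike). The 3 MT194 clones lie below all WT clones for Ccnb1, Ccna2, Cenpe, Kif2c and Ect2 (Ect2 77.6, 65.0 and 91.1 CPM against 120, 155 and 144).

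For the other clones the median member moved little. Against WT, the median log2 fold change was −0.05 for MT486 clones, 0.01 for WT(N48) and −0.03 for Δ-C60, and against WT(N48) it was −0.09 in MT486 and 0.04 in Δ-C60. With 1 clone left out these medians stayed between −0.14 and 0.10, and those of Δ-C60 and of WT(N48) took either sign. In MT486 0 members were called by edgeR or DESeq2 against WT (by edgeR 0% of all genes in each direction, by DESeq2 0.756% higher and 0.439% lower) or WT(N48) (by edgeR 0.113% and 0.174%, by DESeq2 2.37% and 2.05%), with 2 and 4 at an unadjusted p under 0.05. In WT(N48) against WT edgeR called 0 (1.17% rose and 0.93% fell), 3 had an unadjusted p under 0.05, and DESeq2 called 1 (4.42% of all genes in each direction). In Δ-C60 against WT(N48) edgeR and DESeq2 called 0 (0% of all genes in each direction by edgeR, 1.02% higher and 0.643% lower by DESeq2) and 3 had an unadjusted p under 0.05. At that p, of all 13223 genes, 749 were higher and 427 lower in MT486 against WT, and 1040 and 951 against WT(N48). The counts were 1410 and 1365 in WT(N48) against WT, and 946 and 594 in Δ-C60 against WT(N48). Against WT 1 member fell in Δ-C60 (5.11% of all genes rose and 3.22% fell), Aurkb, with 64.9, 55.9 and 57.7 CPM against 102, 103 and 83.5 (−0.69, 0.18, adjusted p 0.0363). It was not called without WT clone 1, 2 or 3, where 0 members were, while 4 members were called higher without Δ-C60 clone 2, and 2 without Δ-C60 clone 1 or 3. Shares of all genes are not given here for these fits, so their counts describe the members alone. In Δ-C60 against WT the members went both ways, 19 higher and 20 lower, from −0.69 to 0.73. At an unadjusted p under 0.05, 5 were higher and 4 lower (2028 and 1559 of all 13223 genes). DESeq2 called 1 higher and 2 lower (8.89% and 6.33% of all genes). Pttg1 ranged from 7.45 to 18.6 CPM over the 15 clones.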

How the data were processed

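Poly(A) RNA of 20 populations and 15 stable clones was read as 50 bp single reads. The authors aligned reads to mm10 with bowtie2, kept a mapping quality of at least 30 and deposited HTSeq read counts per gene without normalization. Strand use in counting was not given in the sources used here, so antisense reads cannot be told apart. Reads on no gene, left out of library sizes, made up 11.7% to 21.3% of those in the population files and 9.14% to 12.0% in the clone files.

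From the counts, edgeR 4.0.16 (R 4.3.3) gave TMM-normalised CPM and quasi-likelihood tests with 1 mean per group, separately over 13805 (populations) and 13223 (clones) genes kept by filterByExpr, with Benjamini-Hochberg adjustment. The standard error is the log2 fold change divided by the square root of F. Replicate numbers paired the populations (deviations of replicates correlated over 0.1 for 45 of 45 pairs of groups, 0.42 to 0.73, and the paper describes separate experiments) but not the clones (3 of 30). The main tests between population groups left this pairing out, and only the fits with the block took it in. Nothing says that clones of a group came from separate infections, so p-values measure the spread between these samples. Alternatives were DESeq2 1.42.0, its size factors, no filter, other thresholds, the block, the compared groups alone, left-out libraries and, added after the data were seen, MT486 clones 1 and 2 summed. Steps were tested on simulated counts.

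The members and lists were chosen with earlier results of these data known. Named members were, per role, those with the largest and smallest change in EV, Cdk1, Ccnb1, Foxm1 and the calls of comparisons with 5 or fewer. Other members that are named, such as Ube2c, Top2a, Tpx2, Cdc25c, Nuf2, Kif11 and those called by edgeR only with the block, were chosen after their values or promoters were seen. From other lists they were the 2 smallest adjusted p in EV, with Cdkn1a, Mybl2, Mki67 and Nelfb. Positions are from GENCODE vM21.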

Additional observations from a re-analysis of the deposited data

Results flagged for a closer look

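In 33 of the 39 members both EV-Cre libraries lay below both EV-GFP libraries while both WT-Cre libraries lay above both WT-GFP libraries, as 2.68% of all genes did, and these were singled out because all libraries of EV moved one way and all libraries of WT the other. The interaction test of this difference called 0 members by edgeR without the replicate block and 14 with it. The same opposite order between EV and MT486 was found in 12 members (0.876% of all genes), where the interaction called 0 with and without the block. Groups of 2 or 3 samples were too small for a test of outlying libraries. Cdkn1a did not turn with the members, at 15.3 and 12.1 CPM in EV-GFP and 78.8 and 50.7 in EV-Cre, and at 12.0 and 13.4 in WT-GFP and 24.3 and 21.7 in WT-Cre.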

How the results depend on the processing

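Counts of members called are given here, with 4 lower in EV, 22 higher in WT-Cre against EV-Cre and 5 lower in MT194 clones against either control as reported. DESeq2 gave 9 in EV, 37 in WT-Cre, 7 in MT194-Cre and 30 in MT486-Cre against EV-Cre, 9 in the interaction of WT, 3 in Δ-C60 against WT clones, 9 in MT194 clones against WT and against WT(N48), and 1 in WT(N48) against WT clones, while it called 7.38% of all genes lower in EV, 5.69% higher in WT-Cre, 4.66% and 6.67% lower in MT194 clones against WT and WT(N48), and 8.89% higher and 6.33% lower in Δ-C60 against WT clones. The replicate block gave 11 in EV, 38, 5 and 37 in WT-Cre, MT194-Cre and MT486-Cre against EV-Cre, 14 in the interaction of WT, and 0, 0 and 3 in Δ-C60 against WT, MT194 against WT and MT194 against WT(N48) clones (718, 52 and 395 of all 13223 genes), and it moved the other 16 of 24 counts by no more than 1.5 times. Clone numbers pair no clones. The compared groups alone gave 0 in EV (239 of all 13269 genes), 0 in Δ-C60 against WT (79 of 12599), 3 in MT194 against WT (536 of 12526), 1 in WT(N48) against WT (567 of 12429) and 0 in MT194 against WT(N48) clones (134 of 12577). Without the filter on low counts the counts were 1 in MT486-Cre against EV-Cre (43 of all 19418 genes) and 2 and 3 in MT194 clones against WT and WT(N48) (174 and 472 of 19203). With no threshold on the fold change, 8 members were called between replicates (9867 of all 13805 genes) and 2 in Δ-C60 against WT clones (1108 of 13223), and with a threshold of 1 the counts were 0 in Δ-C60 against WT (711 of 13223), 0 in MT194 against WT and 1 in MT194 against WT(N48) clones (429 of 13223). Without WT clones 1 and 3, 0 were called in Δ-C60 or MT194 against the remaining WT clone, which is assumed to vary like the other groups. Replicates compared within Ad-GFP and Ad-Cre libraries gave 1 and 28. Leaving out 1 library gave 0 to 4 in EV, 0 to 25 in WT-Cre against EV-Cre, 0 to 4 in Δ-C60 against WT, 0 to 5 in MT194 against WT and 1 to 6 in MT194 against WT(N48) clones, and 0 in the other comparisons of groups; it was not run for replicate 2 against replicate 1. MT486 clones 1 and 2 summed (chosen after the data were seen), and DESeq2 size factors in edgeR, left each count within 1.5 times. With 1 library left out, the log2 fold change of Pttg1 in EV ran from −0.12 (EV-Cre replicate 1 left out) to 0.24 (EV-Cre replicate 2 left out), and it was −0.06 with EV-GFP replicate 2 left out. The cause of these changes was not tested. Each population group holds 2 libraries, and each member had at least 93 reads in every population library. The part of either in the precision was not tested. Shares of all genes are not given for fits with 1 library left out, so those counts describe the members alone.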
